A study of Mus musculus with 3 samples.

Results

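The cells described here are *Cxcl12*-expressing fibroblast-type cells of day 5 implants in mice, 356 of 3952 stromal cells and of 23219 barcodes in all. They were chosen by counts of unique molecular identifiers (UMIs, the counted RNA molecules of a cell). A member had 200 to 6000 genes, at most 5% mitochondrial UMIs, at least 1% of its UMIs from *Col1a1*, *Col1a2*, *Col3a1*, *Dcn* and *Lum* together, 0 UMIs of the macrophage gene *C1qa*, at least 2 UMIs of *Cxcl12*, and 0 UMIs of *Pi16*, *Sox9*, *Acan* and *Col2a1*. The first limits up to *C1qa* define the stromal cells, so the level of *Cxcl12* and the absence of the other 4 genes are given by the choice and are not results. The Matrigel-only library held 181 members, the Vehicle library 10 and the Palo library 165.

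All mice were CD-1 females of 6 to 8 weeks with subcutaneous implants of Matrigel, a basement membrane gel. In the Matrigel-only group the gel held no BMP2 and nothing was given by gavage. In the Vehicle group the gel held recombinant human BMP2, which induces ectopic cartilage and bone, and corn oil with DMSO was given by gavage. The Palo group had the same BMP2 implant and received palovarotene, an agonist of retinoic acid receptor gamma, at 4 mg/kg daily by gavage. Vehicle and Matrigel-only mice thus differed in both BMP2 and gavage, and these cannot be told apart. Each group gave 1 library of pooled masses, so the differences between groups could not be set against replicate error and were not tested. The intervals below are 95% intervals for counting error only, exact binomial for shares and exact Poisson for levels. Intervals for differences between shares combine the Wilson score limits of both shares. The libraries held 44252421, 46317250 and 46901673 UMIs on 9249, 6065 and 7905 barcodes, in the order Matrigel-only, Vehicle and Palo, which is kept below. Shared barcodes numbered 19 between Matrigel-only and Vehicle, 21 between Matrigel-only and Palo and 11 between Vehicle and Palo, and 0 of them were members in both libraries.

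CXCL12 is a chemokine that binds the receptor CXCR4, which draws leukocytes and progenitor cells, and the scavenger receptor ACKR3, which removes it from the surroundings. In bone marrow, stromal cells rich in CXCL12 form the niche of blood-forming cells, and in skin and fascia CXCL12 is made by many fibroblasts. CXCL14 is a second chemokine of the same structural family that many fibroblasts secrete. Heterotopic ossification, the formation of bone outside the skeleton, passes through an early inflammatory and fibroproliferative phase before cartilage appears, and day 5 falls early in that course.

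*Cxcl12* (ENSMUSG00000061353) lies on the plus strand at chr6:117168535-117181367 and *Cxcl14* (ENSMUSG00000021508) on the minus strand at chr13:56288643-56296551 of mm10. The 250 bases before each RefSeq start (GRCm38.p6) are shown because these 2 chemokine genes label the cells and were measured together. They cover chr6:117168285-117168534 and chr13:56296552-56296801 and run 5′ to 3′ on the strand of the gene. Capitals mark the GC box letters GGGCGG or their complement CCGCCC in *Cxcl12*, and in *Cxcl14* the letters TGACCT, the opposite-strand reading of the retinoid receptor motif AGGTCA.
Cxcl12: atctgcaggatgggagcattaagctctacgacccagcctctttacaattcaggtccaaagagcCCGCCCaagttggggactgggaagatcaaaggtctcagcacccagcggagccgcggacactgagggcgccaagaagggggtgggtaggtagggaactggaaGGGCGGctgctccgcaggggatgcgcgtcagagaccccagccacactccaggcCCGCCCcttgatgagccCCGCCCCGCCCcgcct
Cxcl14: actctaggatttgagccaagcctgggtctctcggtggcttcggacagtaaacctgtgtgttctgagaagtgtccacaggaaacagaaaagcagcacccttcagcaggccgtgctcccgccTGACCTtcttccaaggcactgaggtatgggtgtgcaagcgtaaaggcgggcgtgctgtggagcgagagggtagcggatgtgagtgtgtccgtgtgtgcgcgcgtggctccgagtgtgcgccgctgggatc
The *Cxcl12* window was 64.4% GC and held 5 GC boxes, 2 of them overlapping, whereas 32.7% of 32851 mouse promoters of this length held at least 1. The *Cxcl14* window was 59.6% GC, held 0 GC boxes and had the retinoid receptor letters 130 bases before the start, as 14.02% of promoters did on either strand. Neither window held TATAAA, present in 12.4% of promoters, nor ACGTG, the core of the hypoxia response element, present in 16.6%. The median GC content of all promoters was 52.4%. These matches describe letters in a window and were not tied to a measurement of binding.

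The members made up 10.2% of the Matrigel-only stromal cells (181 of 1767, 8.87 to 11.8), 0.830% of the Vehicle stromal cells (10 of 1205, 0.399 to 1.52) and 16.8% of the Palo stromal cells (165 of 980, 14.5 to 19.3). The Vehicle share was thus below both others beyond counting error. Part of this order comes from the choice itself, since 964 of the 1205 Vehicle stromal cells held a UMI of *Sox9*, the transcription factor of cartilage precursors, against 416 of 1767 and 340 of 980. In the Vehicle library 685 cells also held *Acan* and 443 held *Col2a1*, matrix genes of cartilage. Among the stromal cells with 0 UMIs of all 4 genes, which numbered 483, 98 and 369, the members were 37.5% (33.1 to 42.0), 10.2% (5.00 to 18.0) and 44.7% (39.6 to 49.9). With those genes ignored, 36.1%, 14.3% and 45.8% of all stromal cells held at least 2 *Cxcl12* UMIs, so the Vehicle library was again lowest.

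A limit of 2 UMIs is passed more often in a deeper cell, and the stromal cells had median UMIs of 8789, 16932 and 12732, the Vehicle cells being the deepest. With every stromal cell thinned to 2900 UMIs and 172, 64 and 46 shallower cells left out, the choice was met by 8.97%, 1.54% and 11.0% of stromal cells. Thinned shares rest on expected numbers of cells and not on counted cells, so their intervals are approximate. The Palo share then exceeded the Matrigel-only share by 2.00 percentage points, with an interval of -0.38 to 4.53 that holds 0. Vehicle minus Matrigel-only came to -7.42 points (-9.03 to -5.84). With the 4 genes ignored, 18.6%, 4.78% and 16.4% of the thinned stromal cells held at least 2 *Cxcl12* UMIs, the Palo share then being 2.18 points below the Matrigel-only share (-5.17 to 0.93) and the Vehicle share lowest beyond counting error. Among the cells with the 4 genes at 0, of which 414, 69 and 345 were deep enough, the thinned shares were 16.5%, 7.90% and 15.0%. Within those cells the Vehicle share differed by -8.63 points from Matrigel-only (-14.5 to 0.76) and Palo by 7.06 points from Vehicle (-2.36 to 13.1), both intervals holding 0, so a lower Vehicle share among them was not detectable at this depth. Of cells with at least 2 *C1qa* UMIs and under 1% of UMIs from the 5 fibroblast genes, macrophages that should lack the gene, 1.67%, 0.761% and 1.24% held a *Cxcl12* UMI at median depths of 2944, 3660 and 3924 UMIs. At the thinned depth a *Cxcl12* UMI was present in 1.28%, 0.227% and 0.866% of these cells and in 36.9%, 11.4% and 36.8% of stromal cells.

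**Figure D1:**
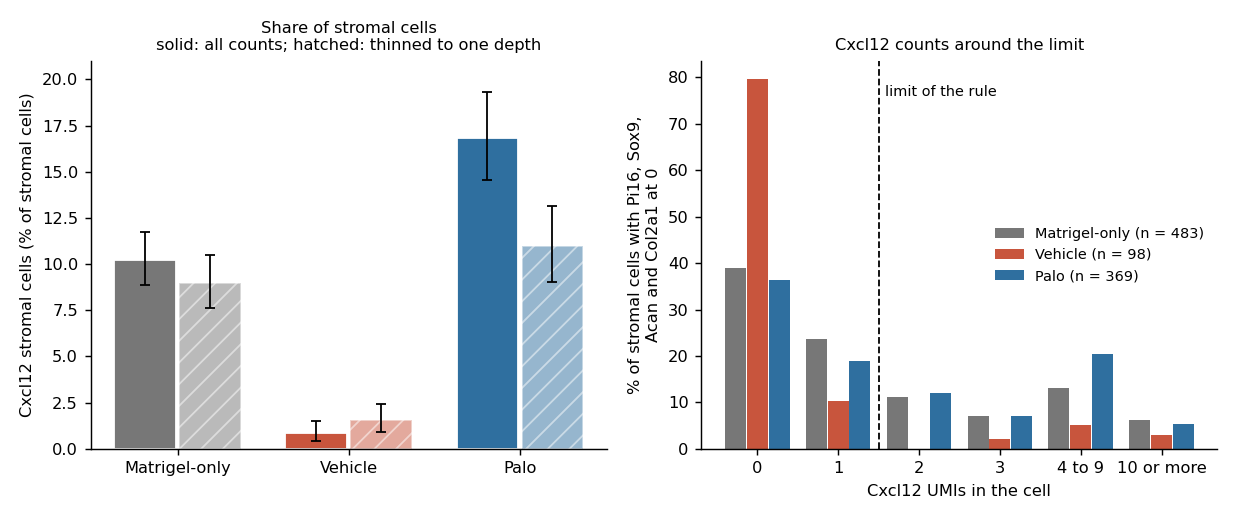
Left, members as a percentage of stromal cells in each library with 95% binomial intervals, solid bars from all counts and hatched bars after thinning to 2900 UMIs; right, stromal cells with 0 UMIs of the 4 excluded genes by their number of *Cxcl12* UMIs, in percent, with the limit of the choice dashed. The Vehicle bars are lowest on the left, the Palo and Matrigel-only intervals overlap after thinning, and 78 of the 98 Vehicle cells on the right held 0 *Cxcl12* UMIs.

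*Cxcl12* was spread unevenly across the kinds of stromal cells. *Pi16*, a marker of adventitial fibroblast progenitors, was present in 985, 144 and 317 stromal cells, and 27.3% (24.5 to 30.2), 50.0% (41.6 to 58.4) and 32.8% (27.7 to 38.3) of these held at least 2 *Cxcl12* UMIs. The Vehicle library was thus highest among *Pi16*-positive cells, which had median UMIs of 8150, 13857.5 and 10959, and it was also highest in level, at 393 CPM of *Cxcl12* against 258 and 159 CPM. Among *Sox9*-positive cells without *Pi16*, *Acan* and *Col2a1*, 62.8% (57.0 to 68.3) of Matrigel-only and 61.7% (55.9 to 67.3) of Palo cells reached 2 UMIs, against 48 of 240 Vehicle cells (15.1 to 25.6%). The low Vehicle share therefore held for these *Sox9*-positive cells and not for *Pi16*-positive cells. Of the 765 Vehicle cells with *Acan* or *Col2a1*, 7.58% (5.81 to 9.69) reached 2 UMIs, and the other libraries held only 2 and 4 such cells, too few for a comparison.

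Levels are given in CPM, the UMIs of a gene summed over the cells of a class relative to all UMIs of that class, scaled to the usual fixed total. Because the counts come from the 3′ end of transcripts, a gene is compared with itself and not with another gene. *Cxcl12* stood at 495 CPM (466 to 526) in Matrigel-only members, 568 CPM (443 to 718) in Vehicle members and 380 CPM (356 to 407) in Palo members, as a description of the choice. In the *Sox9*-positive cells it stood at 575 CPM (550 to 601), 63.4 CPM and 330 CPM (313 to 347), and in the *Pi16*-positive cells at 258, 393 and 159 CPM. *Cxcl12* was therefore not particular to the members, since the Matrigel-only *Sox9*-positive cells carried more of it per UMI.

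Per cell, the members held a median of 4 *Cxcl12* UMIs in the Matrigel-only library, from 2 to 33, and 4 in the Palo library, from 2 to 22. The 10 Vehicle cells held 3, 3, 5, 5, 5, 5, 6, 11, 12 and 15. The limit fell inside a continuous range, with 114 Matrigel-only, 10 Vehicle and 70 Palo cells just below it at 1 UMI and 54, 0 and 44 cells just inside it at 2 UMIs. At 2 UMIs *Cxcl14* stood at 92.7 CPM in Matrigel-only and 41.6 CPM in Palo cells, and at 1 UMI at 84.3 and 44.9 CPM. At 3 or more *Cxcl12* UMIs it stood at 308 and 194 CPM, or at 273.9 and 98.6 CPM without the cell highest in *Cxcl14*, which held 57 of 478 and 163 of 327 UMIs.

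*Cxcl14* itself was not used by the choice. It was found in 55 of 181 Matrigel-only, 7 of 10 Vehicle and 46 of 165 Palo members, at 249 CPM (228 to 271), 812 CPM (661 to 988) and 153 CPM (137 to 170). In the comparison cells with the same 4 genes at 0 and at most 1 *Cxcl12* UMI, called *Cxcl12*-low stroma below, it stood at 62.8, 64.4 and 51.2 CPM. A single Palo member carried 163 of the 353 *Cxcl14* UMIs. With the member highest in *Cxcl14* left out of each library, an alternative chosen after seeing the data, the log2 ratio to *Cxcl12*-low stroma was 1.75, 2.84 and 0.65, against 1.90, 3.56 and 1.49 with it. In Vehicle *Cxcl12*-low stroma 48 of the 67 *Cxcl14* UMIs came from 1 cell, and with the highest cell left out of both classes the ratios were 1.99, 4.41 and 0.86. *Pi16*-positive cells held *Cxcl14* at 221, 370 and 272 CPM and *Sox9*-positive cells at 334, 33.7 and 131 CPM, so *Cxcl14* was highest in the members in the Vehicle library, whereas *Sox9*-positive cells of Matrigel-only and *Pi16*-positive cells of Palo mice held more of it than the members did.

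**Figure D2:**
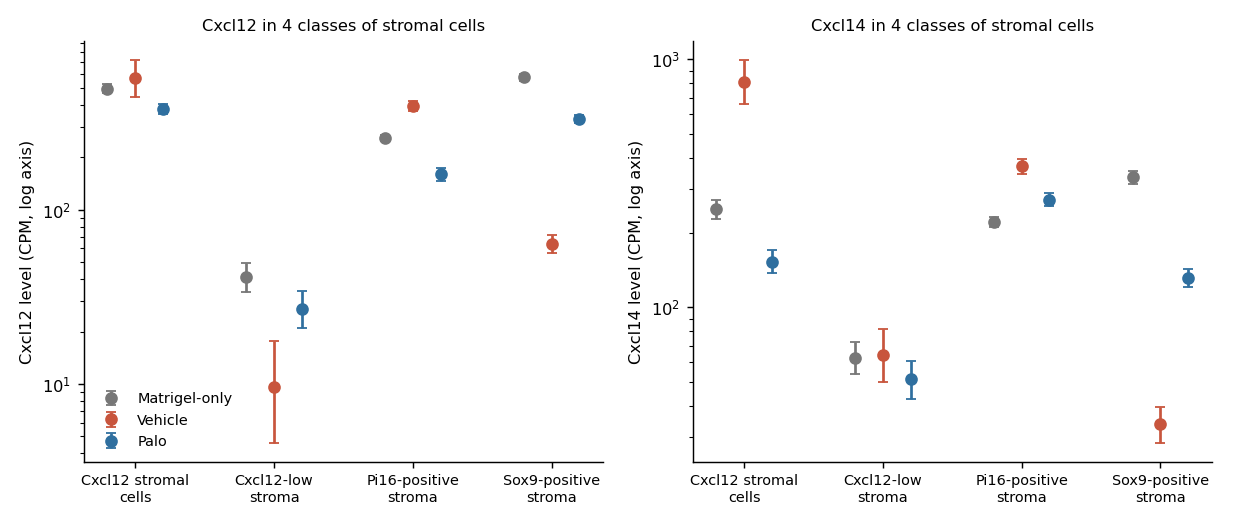
*Cxcl12* and *Cxcl14* levels in CPM, on a log axis with 95% Poisson intervals, in members, *Cxcl12*-low, *Pi16*-positive and *Sox9*-positive stroma of each library. The *Cxcl12* order of members and *Cxcl12*-low stroma is set by the choice, and the *Sox9*-positive cells of Matrigel-only and Palo mice reach 575 and 330 CPM of *Cxcl12*.

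The members carried the markers of mesenchymal cells. *Pdgfra*, the receptor alpha of platelet-derived growth factor, was found in 152 of 181, 9 of 10 and 145 of 165 members, and the limb mesenchyme factor *Prrx1* in 174, 10 and 163. The 12 endothelial markers summed to 86.8, 106 and 72.4 CPM with 5, 7 and 4 of them at 0 UMIs. The most abundant was *Eng* at 54.1 CPM in Matrigel-only and 52.9 CPM in Palo members, and in Vehicle members *Flt1* and *Eng* both stood at 40.6 CPM. *Cdh5*, the cadherin of endothelial junctions, had 0 UMIs in all 3 libraries. The 12 mural cell markers summed to 1220, 1218 and 1390 CPM, led by *Ndufa4l2* at 823, 918 and 681 CPM. *Rgs5* had 1, 0 and 2 UMIs and *Myh11* had 1, 0 and 1, whereas the smooth muscle actin gene *Acta2* stood at 361, 260 and 659 CPM. It was found in 76, 3 and 101 members, and 30 of its 32 Vehicle UMIs came from 1 cell. The 16 macrophage and leukocyte markers summed to 400, 171 and 445 CPM with 0, 8 and 0 of them at 0, led by *Cd74* at 132 CPM, *Lyz2* at 48.7 CPM and *Cd74* at 171 CPM. With cells of at least 3 leukocyte UMIs left out, the members were 10.4%, 0.803% and 17.4% of stromal cells, and the *Cxcl14* log2 ratio to *Cxcl12*-low stroma, described above, was 1.88, 3.46 and 1.32. Lists of 8 Schwann cell markers (6.996, 32.5 and 4.77 CPM, led by *S100b*), 7 epithelial markers (0.466, 0 and 0 CPM), 8 skeletal muscle markers (6.53, 16.2 and 16.5 CPM) and 6 mesothelial markers (28.9, 48.7 and 9.10 CPM, led by *Krt19*) were low. The defining markers *Sox10* and *Epcam* had 0 UMIs in members of all 3 libraries.

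Against *Cxcl12*-low stroma, 10 of 2469 genes (0.405%) with at least 50 CPM in the members of every library were at least 2-fold higher in each, and 0 of 2572 genes (0%) with at least 50 CPM in the *Cxcl12*-low cells of every library were 2-fold lower in each. All ratios are on the log2 scale with 5 CPM added, and this comparison shares its cells with the choice, so it is a description. The genes were *C3*, *Cyp1b1*, *Cxcl14*, *Sfrp1*, *Emb*, *Plac8*, *Tmem176b*, *Angptl4*, *Dpep1* and *Ltbp2*. Of these, *Cxcl14* fell short of 2-fold in the Palo library once the 1 cell with 163 UMIs was left out, as given above. With cells of at least 3 leukocyte UMIs left out, 9 genes were higher and 0 lower in each library. With Matrigel-only and Palo alone, 11 genes were higher and 1 was lower. The members and the *Cxcl12*-low cells had median UMIs of 10332 and 9167, 10892.5 and 11112.5, and 13312 and 12501.5. The *Cxcl12*-low cells included far shallower ones, with 10% of them below 1007, 647 and 3125 UMIs against 4781, 5211 and 7874 UMIs in members, and the part of this in the differences was not tested.

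*C3*, the central component of complement, led the list. It stood at 524 CPM in Matrigel-only members, 1486 CPM in Vehicle members and 151 CPM in Palo members, against 82.2, 93.2 and 38.9 CPM in *Cxcl12*-low stroma. It was found in 91 of 181, 8 of 10 and 62 of 165 members, so in the Palo library most members had none. The ratios were 2.60, 3.92 and 1.83. *C3* was still higher in *Pi16*-positive Matrigel-only and Palo cells, at 970 and 764 CPM.

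*Sfrp1*, a secreted antagonist of Wnt signalling, stood at 514, 853 and 291 CPM against 174, 215 and 111 CPM in *Cxcl12*-low stroma. *Cyp1b1*, a cytochrome P450 that oxidises steroids, stood at 71.4, 81.2 and 55.9 CPM against 12.9, 8.65 and 13.9 CPM. *Ltbp2*, a protein of elastic microfibrils, stood at 618, 1283 and 780 CPM against 292, 630 and 294 CPM. These 3 genes were higher than in *Cxcl12*-low stroma in each library, and *Cyp1b1* in the Vehicle library rested on 10 UMIs in 3 cells. *Emb*, which encodes a membrane glycoprotein, stood at 144, 463 and 65.0 CPM against 38.0, 74.0 and 24.7 CPM. *Angptl4*, an inhibitor of lipoprotein lipase, stood at 139, 146 and 137 CPM against 63.5, 64.4 and 58.2 CPM, the Vehicle level resting on 1 cell as given below. The ratios of the other genes past the fold, *Plac8*, *Tmem176b* and the dipeptidase gene *Dpep1*, lay between 1.04 and 2.08 in log2.

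*Lbp*, which binds bacterial lipopolysaccharide, and the adhesion molecule gene *Vcam1* came next and missed the limit in the Palo library. *Lbp* stood at 208, 918 and 67.2 CPM against 51.0, 111 and 32.8 CPM, and *Vcam1* had log2 ratios of 1.19, 2.40 and 0.93. On the lower side the named genes were led by the water channel gene *Aqp1*, with 155, 16.2 and 125 CPM in members against 263, 78.8 and 509 CPM, or -0.74, -1.98 and -1.98 in log2. *S100a4*, a calcium-binding protein of fibroblasts, stood at 1623, 593 and 878 CPM against 2247, 1222 and 2012 CPM. *Jag1*, a ligand of Notch receptors, followed with -0.65, -0.89 and -1.54. Single cells weighed on the Vehicle values, the highest member for each gene holding 10 of 18 *Angptl4* UMIs and 42 of 73 *S100a4* UMIs, and the highest *Cxcl12*-low cell for each gene 42 of 97 *C3*, 95 of 224 *Sfrp1* and 70 of 115 *Lbp* UMIs. Without its highest member *Angptl4* stood at 72.3 CPM, no longer 2-fold above the 64.4 CPM of *Cxcl12*-low stroma.

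**Figure D3:**
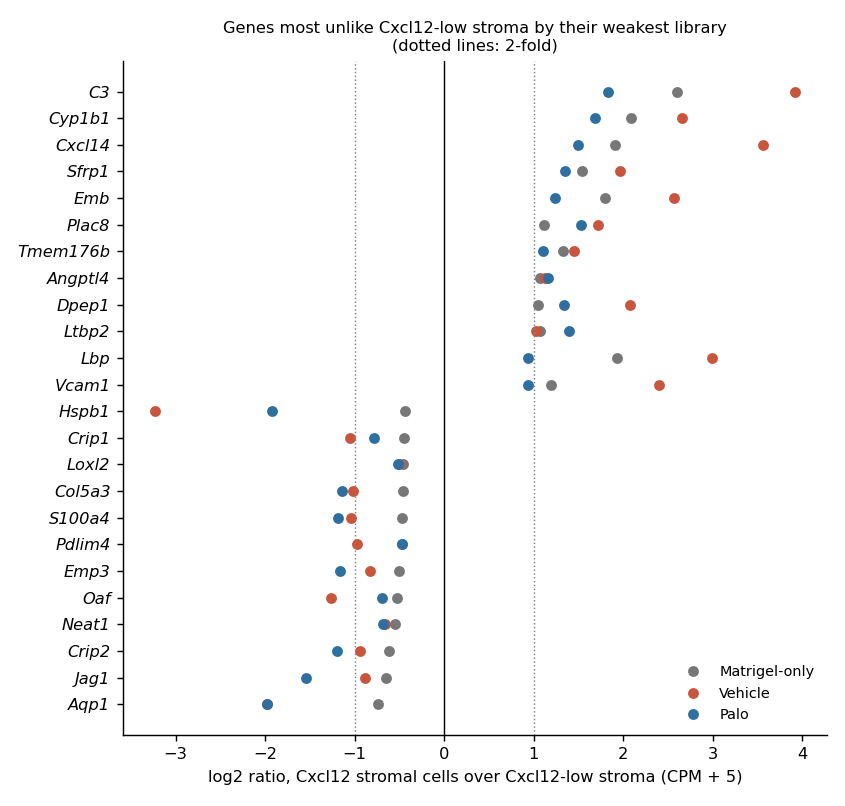
Log2 ratio (x axis, CPM + 5) of members over *Cxcl12*-low stroma for the named genes (y axis), with 1 point for each library and the 2-fold limits dotted, ordered by the library nearest to 0. *C3* heads the higher genes at 2.60, 3.92 and 1.83, and *Aqp1* closes the lower genes at -0.74, -1.98 and -1.98 in Matrigel-only, Vehicle and Palo members.

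The gene lists were read among genes with at least 10 CPM on one side. Complement genes, which opsonise and lyse targets, had the largest share higher in members of any list other than the markers of other cell types in the Matrigel-only and Vehicle libraries: 8 of 10 in Matrigel-only (all genes 0.864%), 9 of 10 in Vehicle (all genes 12.5%) and 2 of 9 in Palo (all genes 0.65%). Their medians were 1.10, 2.42 and 0.58, with medians over all genes of 0.02, -0.02 and 0.01. *C4b* stood at 272, 658 and 84.9 CPM against 94.7, 50.9 and 55.1 CPM, and *C1s1* at 307, 495 and 156 CPM against 143, 33.6 and 84.0 CPM. *Serping1*, the inhibitor of the first complement enzymes, stood at 455, 698 and 268 CPM against 163, 216 and 181 CPM. In the Palo library *C4b*, *C1s1* and *Serping1* had ratios of 0.58, 0.86 and 0.55, below 2-fold.

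Among the chemokines and cytokines other than *Cxcl12*, which include *Cxcl14*, 3 of 12, 7 of 13 and 5 of 13 genes were 2-fold higher in members, against 0.864%, 12.5% and 0.65% of all genes. *Csf1*, the growth factor of macrophages, stood at 297, 422 and 316 CPM against 144, 223 and 141 CPM. Of its 52 UMIs in Vehicle members 23 came from 1 cell, and the level without that cell was 260 CPM. *Ccl2*, which attracts monocytes, stood at 445, 958 and 791 CPM in members against 605, 62.5 and 344 CPM, lower in the Matrigel-only and higher in the other members, and 65 of its 118 Vehicle UMIs came from 1 cell. *Ccl7* stood at 262, 885 and 244 CPM against 201, 84.6 and 106 CPM, and 78 of its 109 Vehicle UMIs came from 1 cell.

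The partners of CXCL12 differed among themselves. *Cxcr4* was found in 4, 0 and 6 members, at 1.87, 0 and 3.47 CPM. *Ackr3* stood at 230, 235 and 88.4 CPM in members against 328, 42.3 and 294 CPM in *Cxcl12*-low stroma, so the Palo members held less of it than their neighbours and the Vehicle members more, with 20 of their 29 *Ackr3* UMIs from 1 cell and 85.9 CPM without it. *Dpp4*, a protease that cuts CXCL12, stood at 66.2, 0 and 37.3 CPM, and 0 UMIs among the 10 Vehicle cells allow up to 24.4 CPM, the level of 3 UMIs. *Mmp9*, a gelatinase that also cuts it, stood at 47.1, 0 and 146 CPM. The most abundant genes in this list of 6 receptor and processing genes were other metalloproteinase genes. These were *Mmp2*, at 744 CPM in Matrigel-only and 1129 CPM in Vehicle members, and *Mmp14*, at 690 CPM in Palo members.

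Of 16 marrow niche genes 1, 3 and 1 had 0 UMIs in members, and the list summed to 2067, 3524 and 1438 CPM against 1543, 1002 and 1558 CPM in *Cxcl12*-low stroma. *Gas6* alone gave 2022 CPM of the sum in Vehicle members. Without the top gene of each class and library the sums were 1353.5, 1502 and 868 CPM against 804, 630 and 683 CPM. Among the niche genes with at least 10 CPM, 3 of 11, 6 of 11 and 0 of 10 were 2-fold higher in members, against 0.864%, 12.5% and 0.65% of all genes. *Vcam1* was among them in Matrigel-only and Vehicle members and *Gas6* in Vehicle members. *Lepr*, which marks the marrow cells rich in CXCL12, was low, with 12, 1 and 4 UMIs, at 5.60, 8.12 and 1.73 CPM. The stem cell factor gene *Kitl* stood at 26.6, 16.2 and 13.0 CPM. *Ebf1*, a transcription factor of such cells and of adipocyte precursors, stood at 713, 471 and 571 CPM, and 738, 372 and 875 CPM in *Cxcl12*-low stroma. *Igf1* stood at 146, 154 and 156 CPM, close across the 3 libraries, although 10 of its 19 Vehicle UMIs came from 1 cell.

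Cartilage and bone genes outside the choice differed from *Cxcl12*-low stroma mainly in the Vehicle library. There 5 of 8 such genes with at least 10 CPM were 2-fold lower in members than in *Cxcl12*-low stroma (all genes 14%) and 0 were higher, with a median of -2.22. However, 14 of the 20 listed genes had 0 UMIs in the 10 Vehicle members, where 3 UMIs are 24.4 CPM. Ratios of such genes depend on the 5 CPM added, so the Vehicle count and median give no size for the difference. In Matrigel-only and in Palo members 1 of 5 was 2-fold higher (all genes 0.864% and 0.65%) and 0 were lower. The list summed to 236 and 371 CPM in these members against 214 and 245 CPM in *Cxcl12*-low stroma. *Spp1*, the bone matrix protein osteopontin, stood at 8.12 CPM in Vehicle members and 623 CPM in Vehicle *Cxcl12*-low stroma, or 414 CPM without the cell that held 225 of its 648 UMIs. *Runx2*, the transcription factor of bone-forming cells, stood at 47.1, 48.7 and 57.2 CPM in members, against 41.3, 84.6 and 53.6 CPM.

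Against *Pi16*-positive stroma the members were lower in fibroblast progenitor genes, 13 of 15 at least 2-fold in Matrigel-only (all genes 3.5%) and 14 of 15 in Palo (all genes 3.58%), with medians of -1.64 and -2.39. That list holds genes such as *Dpp4*, *Cd34* and *Ly6a* that mark the same cells as *Pi16*, whose absence was part of the choice. Complement genes were 2-fold lower in 5 of 11 and 8 of 11. Higher in members were glycolysis genes, 12 of 17 in Matrigel-only (all genes 2.95%) and 4 of 17 in Palo (all genes 2.44%), and cell cycle genes, 12 of 20 and 7 of 20. All 17 glycolysis and all 20 cell cycle ratios lay above 0 in both libraries, with medians of 1.12 and 0.73 for glycolysis and 1.20 and 0.91 for the cell cycle.

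The members were not uniform. Those with a *Cxcl14* UMI numbered 55 in the Matrigel-only library (30.4%, 23.8 to 37.6), 7 in the Vehicle library (70.0%, 34.8 to 93.3) and 46 in the Palo library (27.9%, 21.2 to 35.4). In the Matrigel-only library they also held more *Cxcl12*, 914 against 352 CPM with medians of 7 and 3 UMIs, whereas in the Palo library both kinds had a median of 4 UMIs and stood at 420 and 366 CPM. Their median depth was 8413 against 12137.5 UMIs in the Matrigel-only library and 13034 against 13385 UMIs in the Palo library, and its part in the differences was not tested. The 3 Vehicle members without *Cxcl14* had 18406, 19883 and 24303 UMIs, more than each of the 7 with it.

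Of 3157 genes with at least 50 CPM, 22 (0.697%) were at least 2-fold higher with *Cxcl14* in both Matrigel-only and Palo members and 20 (0.634%) were 2-fold lower in both. *C3* was highest in ratio, at 1559 against 172 CPM in Matrigel-only and 331 against 82.9 CPM in Palo members. *Lbp* stood at 577 against 81.9 CPM and 151 against 35.8 CPM. *Serpina3n*, a protease inhibitor, stood at 732 against 83.1 CPM and 95.1 against 28.0 CPM. The elastin gene *Eln* stood at 1940 against 565 CPM and 1665 against 696 CPM. Other genes on this side were *Wisp2* at 2.16 and 1.65, the eosinophil attractant gene *Ccl11* at 1.55 and 1.75, *Mmp3* at 3.14 and 1.44, *Csf1* at 1.57 and 1.15, *Vcam1* at 1.69 and 1.03 and the alarmin gene *Il33* at 1.83 and 1.03, in log2.

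Members without *Cxcl14* held more *Aqp1*, at 201 against 20.2 CPM in the Matrigel-only and 166 against 15.9 CPM in the Palo library. The homeobox gene *Barx2* stood at 171 against 23.9 CPM and 53.7 against 3.17 CPM. *Ackr3* stood at 279 against 88.3 CPM and 116 against 15.9 CPM, the scavenger receptor being lower where *Cxcl14* was found. *Tnfaip6*, whose product binds hyaluronan, stood at 286 against 46.0 CPM and 128 against 38.1 CPM. *S100a4* stood at 2025 against 439 CPM and 1076 against 352 CPM.

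By list, the members with *Cxcl14* had 9 of 11 complement genes 2-fold higher in Matrigel-only (all genes 4.59%) and 3 of 11 in Palo (all genes 1.4%). Other chemokines and cytokines were 2-fold higher in 8 of 12 and 6 of 12. Glycolysis ratios lay above 0 in 1 of 17 and 2 of 17 genes, with medians of -0.62 and -0.29. Macrophage and leukocyte markers moved with the split in opposite ways, 3 of 13 being 2-fold higher in Matrigel-only and 5 of 11 lower in Palo members (all genes 1.76%), and their part was not tested.

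**Figure D4:**
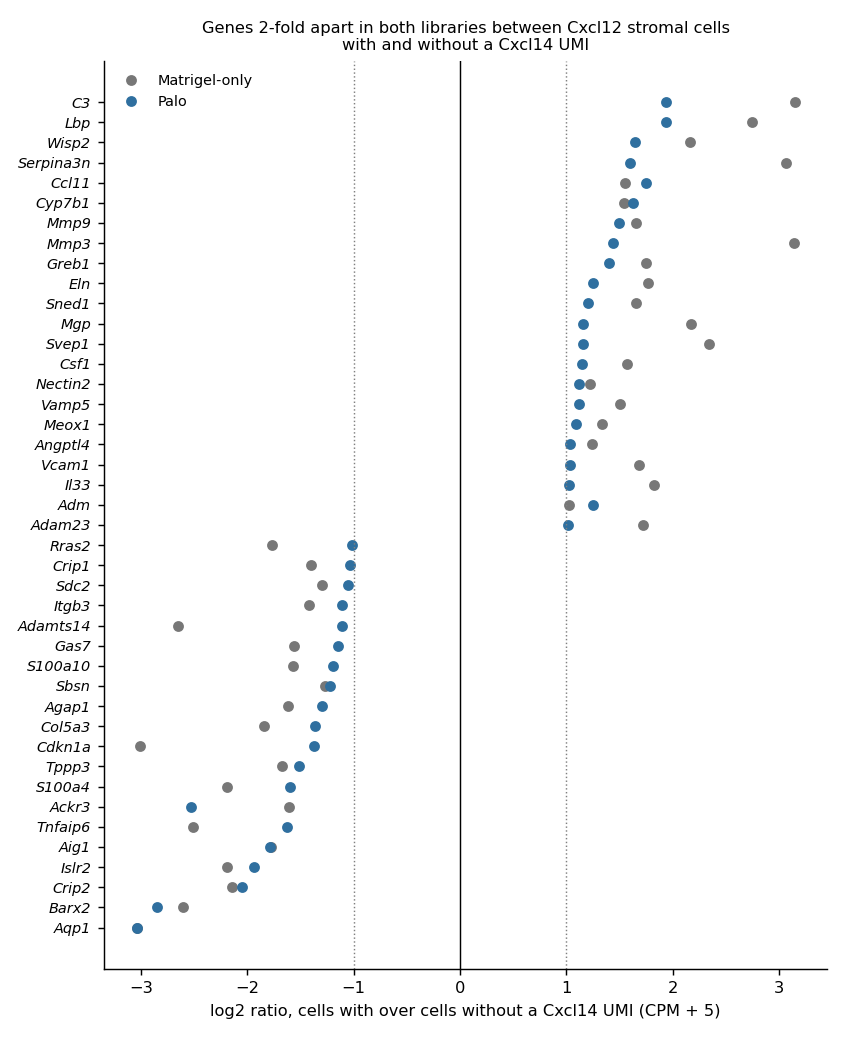
Log2 ratio (x axis, CPM + 5) of members with a *Cxcl14* UMI over members without one for the 22 genes higher and the 20 genes lower by at least 2-fold in both libraries (y axis), with 1 point each for Matrigel-only and Palo and the 2-fold limits dotted. *C3* (3.14 and 1.94) and *Lbp* (2.75 and 1.93) head the higher genes, and *Barx2* (-2.61 and -2.84) and *Aqp1* (-3.03 and -3.04) close the lower ones.

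Palo and Matrigel-only members, 165 and 181 cells, are the pair with enough cells to be set side by side in detail. Of 3425 genes with at least 50 CPM, 16 (0.467%) were at least 2-fold higher and 85 (2.48%) 2-fold lower in Palo members. BMP2, palovarotene and gavage all differ between these groups and cannot be told apart in this pair. Ratios have intervals for counting error on the log2 ratio without the 5 CPM added.

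Hypoxia-induced genes were lower in Palo members. Of 18 such genes 6 were 2-fold lower (all genes 1.9%) and 0 had a ratio above 0, with a median of -0.64 against -0.03 over all genes. *Egln3*, a prolyl hydroxylase that marks HIF proteins for degradation, stood at 93.3 CPM in Matrigel-only and 9.10 CPM in Palo members, a ratio of -2.80 (-4.08 to -2.71). *Slc2a1*, the glucose transporter GLUT1, stood at 161 and 25.6 CPM, *Ndrg1* at 355 and 78.9 CPM, and *Vegfa*, the endothelial growth factor, at 215 and 59.4 CPM. The Vehicle members stood at 130 CPM of *Egln3*, 130 CPM of *Slc2a1*, 650 CPM of *Ndrg1* and 390 CPM of *Vegfa*, but without the highest cell for each gene they stood at 47.7, 57.3, 114.6 and 248 CPM, so their place relative to the Matrigel-only members rests on single cells for *Egln3* and *Ndrg1*. The list was also lower in the other stroma, with 8 of 18 genes 2-fold lower in *Cxcl12*-low stroma (all genes 1.21%), 8 of 17 in *Sox9*-positive cells (all genes 1.35%) and 3 of 17 in *Pi16*-positive cells (all genes 0.795%). Of 17 glycolysis genes 3 were 2-fold lower and 1 higher, the enzymes *Pgk1* and *Ldha* having ratios of -0.19 and -0.11. The higher gene was the enolase gene *Eno1*, at 127, 463 and 299 CPM, which has a near-identical copy in the genome, so its counts are uncertain.

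Complement genes were lower as well, 5 of 10 at least 2-fold (all genes 1.9%) with a median of -1.09. *C3* stood at 524 and 151 CPM (ratio -1.76, -1.97 to -1.62), *C4b* at 272 and 84.9 CPM, and *C1ra*, a complement protease, at 71.4 and 23.4 CPM. The same list had 0 of 9 genes 2-fold lower in *Cxcl12*-low stroma (all genes 1.21%), 0 of 11 in *Pi16*-positive (all genes 0.795%) and 3 of 10 in *Sox9*-positive cells (all genes 1.35%). By the same limits, fibroblast progenitor genes were 2-fold lower in 6 of 14 in members, against 1 of 14, 0 of 15 and 0 of 14 in *Cxcl12*-low, *Pi16*-positive and *Sox9*-positive cells. *Cd34* stood at 469 and 217 CPM and *Ly6a*, the Sca-1 antigen, at 1500 and 818 CPM in members. The differences between these classes were not tested.

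Other genes on the lower side were the basement membrane collagens *Col4a1*, at 116 and 17.8 CPM, and *Col4a2*, at 62.0 and 9.53 CPM. *Col4a1* was lower in the other stroma too, at 45.2 and 11.9 CPM in *Cxcl12*-low, 136 and 48.9 CPM in *Pi16*-positive and 173 and 16.3 CPM in *Sox9*-positive cells. *Serpina3n* stood at 248 and 46.4 CPM, the inducible nitric oxide synthase gene *Nos2* at 63.9 and 1.30 CPM, and the apolipoprotein gene *Apod* at 117 and 25.6 CPM. *Fabp4*, a fatty acid carrier of adipocytes, had the lowest ratio, -5.15, but 267 of its 402 Matrigel-only UMIs came from 1 cell and 16 cells held it. *Retnla*, a gene of alternatively activated macrophages, had a ratio of -2.99, and 294 of its 354 UMIs came from 1 cell.

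On the higher side, *Camk4*, a calcium-dependent kinase, stood at 12.6 CPM in Matrigel-only and 50.3 CPM in Palo members (ratio 1.65, 1.38 to 2.66). *Mmp9* stood at 47.1 and 146 CPM (1.54, 1.31 to 1.97). It was higher in the other stroma too, at 28.3 and 42.8 CPM in *Cxcl12*-low, 11.1 and 64.0 CPM in *Pi16*-positive and 43.9 and 115 CPM in *Sox9*-positive cells. *Col11a1*, a collagen of cartilage and early mesenchyme, stood at 28.9 and 88.4 CPM (1.46, 1.20 to 2.05). *Tagln*, an actin-binding protein of contractile cells, stood at 247 and 602 CPM, and *Thbs1* at 369 and 821 CPM. *Acta2*, the smooth muscle actin of contractile cells, stood at 361 and 659 CPM, below 2-fold, in 76 and 101 cells. The mural list summed to 1220 and 1390 CPM with *Rgs5* and *Myh11* near 0, as given above. *Ubb* stood at 222 and 553 CPM in members and at 229 and 556 CPM in *Cxcl12*-low stroma, a like difference in both. *Spp1* and *Il1rl1* were also named, but 112 of 201 *Spp1* UMIs and 61 of 128 *Il1rl1* UMIs of Palo members came from 1 cell each.

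*Inhba*, which encodes the subunit of activin A, is of interest to the study. In members it stood at 34.0 CPM (26.7 to 42.8) in Matrigel-only, 56.8 CPM (22.9 to 117) in Vehicle and 95.8 CPM (83.6 to 109) in Palo libraries, found in 36 of 181, 2 of 10 and 65 of 165 cells. The Palo members were thus above the Matrigel-only members beyond counting error (ratio 1.37, 1.10 to 1.89), with 37 of the 221 Palo UMIs from 1 cell. The Vehicle interval overlapped both, but 6 of the 7 Vehicle UMIs came from 1 cell, so the Vehicle members cannot be placed against them. In *Pi16*-positive cells *Inhba* stood at 8.61, 215 and 23.1 CPM. In *Cxcl12*-low stroma *Inhba* stood at 41.3, 1511 and 62.0 CPM and in *Sox9*-positive cells at 43.3, 771 and 78.1 CPM, so in the Vehicle library the members held far less than these cells. Of the 18 activin and TGF-beta genes 1, *Inhba* itself, was 2-fold higher in Palo than in Matrigel-only members (all genes 0.471%). None was 2-fold lower (all genes 1.9%).

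BMP targets did not pass 2-fold in any of 8 genes between Palo and Matrigel-only members, 7 having a ratio above 0 with a median of 0.44. *Id1* and *Id3*, inhibitors of differentiation that BMP receptors induce, stood at 38.2 and 59.8 CPM and at 251 and 403 CPM. Retinoid genes were 2-fold higher in 0 of 14 and lower in 0 of 14, with a median of -0.38. *Cyp26b1*, the enzyme that degrades retinoic acid, stood at 62.0 and 38.1 CPM, and *Dhrs3*, which turns retinal into retinol, at 62.5 and 34.7 CPM. *Rarb*, a receptor gene that retinoic acid is known to induce, had 15 UMIs in Matrigel-only and 1 UMI in Palo members. Cell cycle genes were 2-fold different in 0 of 20, with a median of -0.12. Elsewhere, where 1.9% of all genes were 2-fold lower, 3 of 14 basement membrane genes and 3 of 11 adipogenic genes were so, 1 of 23 matrix genes was higher and 1 lower, 2 of 15 mesenchymal receptor genes were lower, 1 of 12 interferon response genes was higher, and 0 of 9 IGF genes, 0 of 5 Wnt antagonists, 0 of 15 mesenchymal transcription factors and 0 of 15 immediate early genes passed 2-fold. Of all genes with at least 10 CPM, 0.471% were 2-fold higher.

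**Figure D5:**
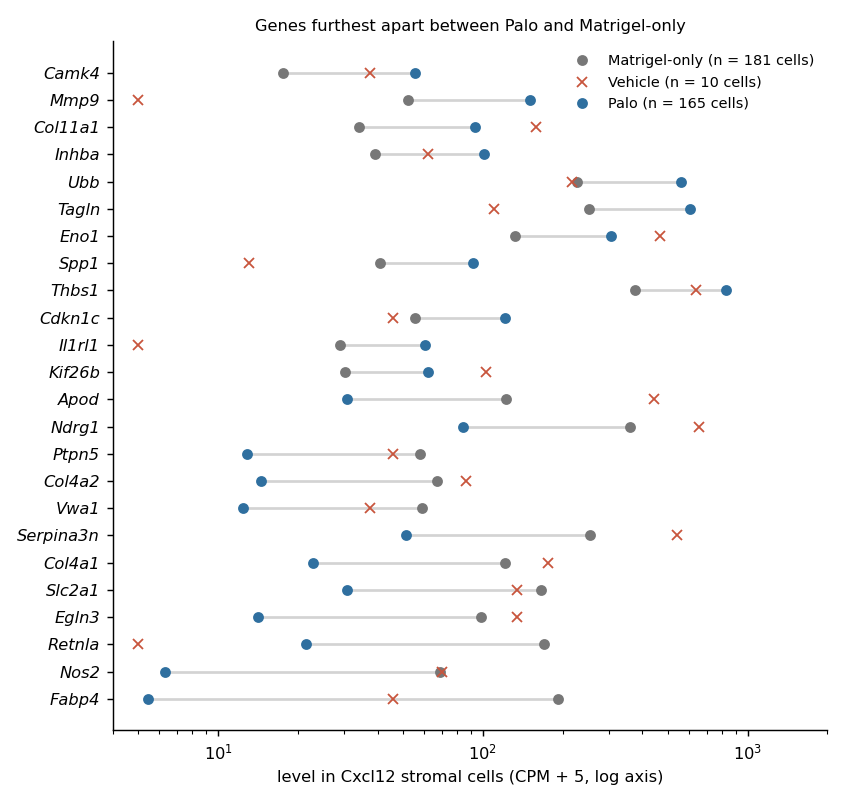
Members' levels (x axis, CPM + 5 on a log scale) of the 24 named genes (y axis) in Matrigel-only and Palo members, joined by a line, with the Vehicle level as a cross from only 10 cells. *Camk4* (12.6 and 50.3 CPM before the 5 CPM are added) and *Inhba* (34.0 and 95.8 CPM) are among the 12 genes higher in Palo, and *Egln3* (93.3 and 9.10 CPM) and *Slc2a1* (161 and 25.6 CPM) among the 12 lower.

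The Vehicle library gave only 10 members with 123150 UMIs, and single cells set many of its levels. Of 3776 genes with at least 50 CPM, 283 (7.49%) were at least 2-fold higher and 284 (7.52%) lower than in Matrigel-only members. Of the 283, 6 came from 1 cell, 81 had the larger part of their UMIs from 1 cell, and 68 had at least 20 UMIs in at least 5 cells. Against Vehicle, 255 of 3726 genes (6.84%) were higher and 365 (9.8%) lower in Palo members. These balances depend on the scaling, since with TMM factors 207 genes were higher and 361 lower in Vehicle than in Matrigel-only members, and 348 higher and 265 lower in Palo than in Vehicle members. These percentages lie well above those of the Palo and Matrigel-only pair, and how much of that is counting error in 10 cells was not tested.

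Among the genes with support from most of the cells, *Apoe*, a lipid carrier, stood at 151 CPM in Matrigel-only, 1632 CPM (1414 to 1874) in Vehicle and 76.7 CPM in Palo members and was found in 8 of the 10 Vehicle cells. *Gas6*, a ligand of the Axl receptor family, stood at 315, 2022 and 198 CPM, also in 8 of 10. *Il33* stood at 93.7, 650 and 65.0 CPM and *Lbp* at 208, 918 and 67.2 CPM, each in 8 of 10. These 4 genes were higher in Vehicle than in both other libraries by more than their intervals, and *Apoe* stood at 326 CPM and *Gas6* at 198 CPM in Vehicle *Cxcl12*-low stroma, where 210 of the 339 *Apoe* UMIs came from 1 cell and the level without it was 125.7 CPM. In *Pi16*-positive cells *Apoe* stood at 1420 CPM (1369 to 1472) in the Vehicle library, in 117 of 144 cells, against 156 and 129 CPM in the others, and this Vehicle interval overlapped that of the members. *Gas6* stood at 609 CPM in Vehicle *Pi16*-positive cells. *Cyp26b1* stood at 503 CPM in Vehicle members with 62 UMIs in 6 cells, and *Tgm2*, a transglutaminase that retinoids are known to induce, at 171 CPM with 21 UMIs in 6 cells, 12 of them in 1. *Pdgfra* stood at 641 CPM in 9 cells, of which 39 of 79 UMIs came from 1. *Gas6*, *Il33*, *Lbp*, *Cyp26b1*, *Tgm2* and *Pdgfra* were described here from the lists after their values were seen.

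The genes with the largest Vehicle ratios had less support. *Saa3*, an acute-phase protein, stood at 40.6, 1242 and 39.0 CPM, and 111 of its 153 Vehicle UMIs came from 1 of 3 cells. *Apoc1* stood at 6.06, 194.9 and 0 CPM with 24 Vehicle UMIs in 4 cells, at least 149.9-fold higher in Vehicle than in Palo members at a floor of 3 UMIs. That bound is lower without the cell that held 12 of the 24 UMIs, since the Vehicle level is then 107.6 CPM. *Fmod*, a small proteoglycan of tendon and cartilage, stood at 49.4, 666 and 104 CPM, 60 of its 82 Vehicle UMIs being from 1 cell.

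On the lower side, 18 genes past the fold against Matrigel-only had 0 UMIs in the Vehicle members, for which the 3 UMI floor of 24.4 CPM gives a bound. *Ube2c*, a ubiquitin-conjugating enzyme of mitosis, was at least 6.43-fold lower and the somite factor gene *Meox1* at least 6.16-fold lower. The matricellular gene *Thbs4* was at least 5.82-fold and the Wnt antagonist gene *Dkk2* at least 4.00-fold lower. Against Palo, 16 genes were at 0 in Vehicle members, *Meox1* being at least 6.96-fold and *Thbs4* at least 6.26-fold higher in Palo members.

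By list, Vehicle members had 7 of 12 interferon response genes 2-fold higher than Matrigel-only members (all genes 8.81%), with a median of 1.12. Of 20 cell cycle genes 10 were 2-fold lower (all genes 14.5%), with a median of -0.99. However, 3 UMIs are 24.4 CPM in Vehicle members, above the 10 CPM limit of the lists. Ratios of genes with so few UMIs depend on the 5 CPM added, so the cell cycle count and median give no size for the difference. Among the listed interferon genes, the highest Vehicle member for each gene held 11 of 14 *Ifi27l2a*, 7 of 13 *Isg15* and 6 of 11 *Psmb8* UMIs. Without that member the Vehicle levels were 27.1, 53.8 and 45.2 CPM, against 114, 106 and 89.3 CPM with it. The interferon-induced GTPase gene *Iigp1*, which is outside that list, stood at 10.3, 154 and 9.10 CPM, the Vehicle level resting on 19 UMIs in 5 cells. *Mki67* stood at 116, 16.2 and 108 CPM, in 30, 2 and 29 cells. Of the 18 activin and TGF-beta genes 6 were higher and 0 lower in Vehicle than in Matrigel-only members. Palo members had 7 of 10 complement genes 2-fold lower than Vehicle members (all genes 10.2%), 7 of 18 hypoxia-induced genes lower and 10 of 20 cell cycle genes higher (all genes 13.3%). Retinoid genes were 2-fold lower in 6 of 13 and higher in 2 of 13, *Cyp26b1* at -3.56 among the lower. Both comparisons share the same 10 Vehicle cells, and the limit given for the cell cycle genes holds in both.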

How the data were processed

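The authors aligned 10x Chromium reads to mm10 and counted UMIs with Cell Ranger 3.0.2, and the deposited values are raw UMI counts per barcode and gene, used here as they are. Their Seurat normalization and clusters were not used here. Cells were grouped by library and chosen by the stated UMI limits. The members, gene lists, tests and alternatives were chosen with earlier results of these data known.

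Counts were summed per class and scaled to CPM, and ratios used CPM with 5 added and a limit of 2-fold among genes with at least 50 CPM (10 CPM for lists). With 1 library per group no p-value was computed. Thinning used the hypergeometric formula. Named genes were the 12 largest and 12 smallest ratios of each comparison, without mitochondrial, ribosomal and unnamed genes, plus up to 4 genes of each list by level and ratio; other genes were named after their values were seen. Scrublet's own threshold called 0, 1 and 0 cells, so the 684, 294 and 500 highest scores, the doublet rate usual for 10x at these cell numbers, were marked and left out only as an alternative. Scripts were tested on simulated data. Python 3.11.15, numpy 2.4.6, scipy 1.17.1, pandas 2.3.3, matplotlib 3.10.9, scanpy 1.11.5 (Scrublet), R 4.3.3 and edgeR 4.0.16 (TMM factors) were used. Gene positions are those of GENCODE vM21. Of 31053 features, 35 symbols were repeated.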

Additional observations from a re-analysis of the deposited data

Results flagged for a closer look

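Between Vehicle and Matrigel-only, *Saa3* was higher in members, with a log2 ratio of 4.77, and lower in *Sox9*-positive stroma, with -2.14 (25.9 and 131 CPM). In *Pi16*-positive and *Cxcl12*-low stroma *Saa3* was higher in Vehicle as in the members, at 492 against 106 CPM and 95.2 against 25.5 CPM (443 of the 1021 Vehicle UMIs in *Pi16*-positive cells came from 1 cell). Without the highest cell of each class and library these levels were 281 against 57.8 CPM and 42.9 against 15.5 CPM. In *Sox9*-positive Vehicle cells 70 of 113 UMIs came from 1 cell, and the level without it was 9.89 CPM. *Ube2c* was lower in members, with 0 UMIs in the 10 Vehicle cells, so that its log2 ratio of -5.02 depends on the 5 CPM added and the bound is at least 6.43-fold, and higher in *Pi16*-positive stroma, with 1.19 (78.6 and 31.6 CPM). Between Palo and Matrigel-only, *Spp1* was higher in members, with 1.17, and lower in *Sox9*-positive stroma, with -1.67 (90.6 and 299.5 CPM). These 3 genes drew attention because 2 kinds of stromal cells of the same libraries had ratios of opposite sign. The differences between the kinds of cells were not tested. In Vehicle members 111 of 153 *Saa3* UMIs, and in Palo members 112 of 201 *Spp1* UMIs, came from 1 cell each.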

How the results depend on the processing

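No paired analysis was possible because each group holds 1 library. Of the values recomputed under the alternatives, 123 moved by less than counting error or less than 1.5 times, and 33 moved further. No *Cxcl14* ratio changed sign. The Palo share exceeded the Matrigel-only share with all counts, but after thinning it was 2.18 points below it with the 4 genes ignored and 1.57 points below it among cells with those genes at 0, both intervals holding 0. The balance of higher and lower genes between Palo and Vehicle turned from 255 and 365 to 348 and 265 with TMM scaling, to 1206 and 927 at 10 CPM and to 255 and 112 at 20 UMIs. TMM scaling gave 207 higher and 361 lower genes for Vehicle against Matrigel-only, where total scaling gave 283 and 284. The Vehicle share stayed lowest under every alternative. With at least 3 *Cxcl12* UMIs required, members were 7.19% of Matrigel-only and 12.3% of Palo stroma, and 1 gene was lower than in *Cxcl12*-low stroma in all libraries. With *Pi16*, *Sox9*, *Acan* and *Col2a1* ignored, the shares were 36.1%, 14.3% and 45.8%, 4 genes were higher than in the remaining stroma in all libraries, and the *Cxcl14* ratio was 2.48 in Matrigel-only. Vehicle against Matrigel-only then gave 57 higher and 75 lower genes, and Palo against Vehicle 59 and 93. Thinning gave 1.54% in Vehicle and 11.0% in Palo. The *Cxcl14* ratio was 4.37 in Vehicle without cells with endothelial UMIs, 1.41 in Matrigel-only and 1.23 in Palo as a mean over cells, and 2.84 in Vehicle and 0.65 in Palo without the highest cell, and 4.41 and 0.86 without the highest cell of both classes, alternatives chosen after seeing the data. The mean over cells gave 457 higher genes in Vehicle against Matrigel-only and 553 lower in Palo against Vehicle. A limit of 10 CPM, which admits more genes, gave 810 and 1332 genes for Vehicle against Matrigel-only, 1206 and 927 for Palo against Vehicle, 42 and 169 for Palo against Matrigel-only, and 1 gene lower than in *Cxcl12*-low stroma. Also chosen after seeing the data, at least 20 UMIs on the higher side gave 81 higher genes in Vehicle against Matrigel-only and 112 lower in Palo against Vehicle, and Matrigel-only and Palo alone gave 1 lower gene against *Cxcl12*-low stroma. TMM scaling shifted the log2 ratio of CPM, before 5 CPM are added, by -0.13 for Vehicle against Matrigel-only, 0.17 for Palo against Vehicle and 0.03 for Palo against Matrigel-only. The cause of these shifts was not tested beyond the change each alternative makes. Depth limits the Vehicle members most, where 3 UMIs are 24.4 CPM, against 1.40 and 1.30 CPM in Matrigel-only and Palo members. The 10 Vehicle members set every ratio that involves that library, and pooled masses hide the spread between animals.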
